A study of Mus musculus with 4 samples.

Results

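The genes described here encode the constant regions of the mouse antibody chains, which set the isotype of an antibody, and the J chain. They are the 8 heavy-chain constant genes Ighm, Ighd, Ighg3, Ighg1, Ighg2b, Ighg2c, Ighe and Igha, the kappa light-chain constant gene Igkc, and Jchain, and together make 10 of the 55399 genes in the count table. They were taken by name, and the set was proposed because Igha and Jchain counts were lower in the Ppm1bCKO libraries while Ighm counts were not. Their differences between the genotypes are therefore given as a description. Where calls of the fit across all genes are counted among them, the counts describe the genes chosen and test nothing about them. RNA-seq libraries had been made from bone marrow cells labelled as Lsk cells, a name in common use for marrow cells that lack lineage markers and carry Sca-1 and Kit, among them stem cells and early progenitors of blood. Of the 4 libraries, 2 carried the label Ppm1bfl/fl, with loxP sites around part of the phosphatase gene Ppm1b, and 2 the label Ppm1bCKO, a conditional knockout of that gene. Strain, age, sex, the Cre driver and the number of mice per library are not named in the sources used here, and p-values reflect no more than the spread among these 4 libraries.

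In a B cell, the heavy-chain constant genes stand in a row behind the rearranged variable segment. Ighm is used first, together with Ighd, which is reached by splicing of a longer transcript. Class-switch recombination then deletes the constant genes in between and brings Ighg, Ighe or Igha behind the variable segment, so that the cell makes IgG, IgE or IgA of unchanged specificity. Each heavy chain is made either with a membrane anchor, for the B cell receptor, or with a secreted tail, which plasma cells use at very high levels. Bone marrow is a site where long-lived plasma cells settle. The J chain joins secreted IgA into dimers and secreted IgM into pentamers, and takes no part in IgG.

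The end of the secreted coding sequence is printed for Igha, Ighm and the IgG genes, because a cysteine there links IgA and IgM to the J chain. Ighd and Ighe are not printed, and binding of the J chain is not read from these sequences. Each line holds the last 63 coding bases, stop codon included, 5′ to 3′ on the coding strand, and the capitals mark a cysteine codon just before the last amino acid. All come from the minus strand of chromosome 12 in GRCm38 (mm10), the build of the count table, and lie in the exon that carries the stop codon of the secreted form.
Igha, chr12:113258768-113258830: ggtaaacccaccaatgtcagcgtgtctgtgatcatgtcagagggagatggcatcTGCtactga
Ighm, chr12:113420867-113420929: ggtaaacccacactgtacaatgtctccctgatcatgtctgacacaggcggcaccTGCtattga
Ighg1, chr12:113328976-113329038: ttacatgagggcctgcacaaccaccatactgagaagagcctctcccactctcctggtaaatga
Ighg2b, chr12:113306389-113306451: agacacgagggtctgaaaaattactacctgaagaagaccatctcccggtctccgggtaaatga
Ighg2c, chr12:113287389-113287451: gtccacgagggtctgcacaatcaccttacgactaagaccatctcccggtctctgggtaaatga
Ighg3, chr12:113359665-113359727: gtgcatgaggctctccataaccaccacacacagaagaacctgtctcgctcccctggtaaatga
The cysteine codon TGC stands in this place in Igha and Ighm and in none of the 4 IgG genes. This penultimate cysteine is the residue through which IgA and IgM polymers and the J chain are linked. Counted back from the stop codon without alignment, the Igha and Ighm tails were identical at 44 of 63 positions. The Igha tail matched the IgG ends at 14 to 16 positions and the Ighm tail at 20 to 28. The bases that open the Igha and Ighm lines close the IgG lines, just before the stop codon. The IgG ends are therefore not the matching part of the chain, and these low matches do not measure divergence.

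Total counts ran from 22393973 to 30045382 per library. Ppm1b was not lower in the libraries labelled Ppm1bCKO: its levels, as counts scaled to a common library total (CPM, with TMM factors), were 80.7 and 82.5 in the Ppm1bfl/fl libraries and 84.3 and 121 in the others, with an edgeR adjusted p of 0.717. A gene-level count sums over all exons, so it need not show a deletion of some of them. Whether any part of Ppm1b was deleted in these libraries was not tested. Counts of 4 Y-linked genes summed to 5984, 6396 and 5870 in 3 of the libraries and to 2 in Ppm1bCKO replicate 2. By these counts sex probably differed within the Ppm1bCKO pair, and in that library it cannot be told apart from genotype. With Ppm1bCKO replicate 1 left out, the genotypes also differ wholly in these counts. The part of sex in the values below was not tested. Of the markers of the labelled cells, Kit stood at 121 to 228 CPM, Cd34 at 118 to 137, Flt3 at 52.5 to 85.0 and Ly6a, which encodes Sca-1, at 17.7 to 22.2. Transcripts of mature cells were also present, and the sum of 9 erythroid markers ran from 7144 to 15589 CPM. Sums of 10 mature neutrophil markers ran from 4482 to 5449 CPM and of 9 eosinophil markers from 3013 to 7963 CPM. The 13 T and NK cell markers summed to 224 to 290 CPM, and 8 markers of the labelled cells to 460 to 607 CPM. All libraries enter each value below unless one is said to be left out.

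All 13 immunoglobulin constant genes of the annotation, which are the 9 above and 4 lambda genes (Iglc1 to Iglc4), made up 2.39% and 1.48% of all counts in the Ppm1bfl/fl libraries and 0.551% and 0.730% in the libraries labelled Ppm1bCKO. Both of the latter lay below both of the former. On the CPM scale the sum was 19067 ± 6106 (SD, n = 2) against 6540 ± 1567, a mean 2.92-fold lower. In bulk RNA, fewer antibody-making cells and less antibody RNA per cell cannot be told apart. The difference was not even across isotypes. The sum of the switched heavy chains (IgG, IgE and IgA) was 3.76-fold lower, the sum of the light chains 3.10-fold lower and the sum of the IgG genes 2.33-fold lower, while Ighm and Ighd had higher means in the libraries labelled Ppm1bCKO.

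All 10 genes passed the filter on low counts. With the edgeR quasi-likelihood test at a Benjamini-Hochberg adjusted p of 0.05, 1 of the 10 was called lower (Igha) and 0 higher, where 0.311% of the 16393 genes tested were called lower and 0.061% higher. The genotypes' libraries stood apart without overlap for 6 of the 10 in the lower direction (Igha, Igkc, Jchain, Ighg2b, Ighg2c and Ighg1) and for 1 in the higher direction (Ighd), and they overlapped for Ighm, Ighg3 and Ighe. Over all genes tested, 20.6% did not overlap in each direction. Igha was not called when either Ppm1bCKO library was left out, and DESeq2 called 5 of the 10 lower, against 0.911% of all genes. The median log2 fold change of the 10 genes was -1.41, against -0.0032 over all genes tested. Because the genes were chosen on this contrast, these shares are set side by side without being read as support.

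**Figure D1:**
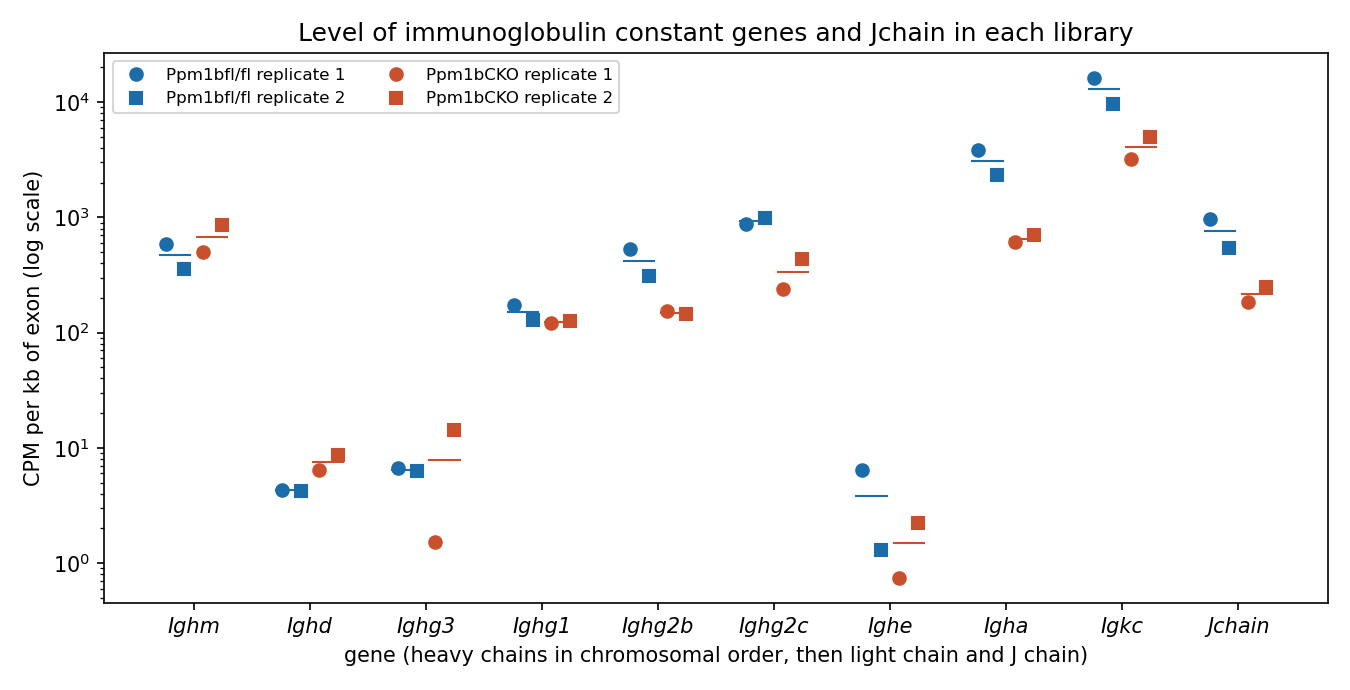
CPM per kilobase of exon (log scale) of each gene in each library, with Ppm1bfl/fl in blue, Ppm1bCKO in orange, circles for replicate 1, squares for replicate 2 and short lines for the genotype means. Igkc is highest in every library; Igha, the next gene in the Ppm1bfl/fl libraries at a mean of 3096, stands at 655 in those labelled Ppm1bCKO, beside Ighm at 681; per kilobase of the secreted transcript Igha stays above Ighm there, at 1589 against 861.

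Igha encodes the alpha heavy chain of IgA, the isotype of mucosal secretions, and is the last constant gene of the heavy-chain locus (chr12:113254830-113260236). Its level was 10296 and 6227 CPM in the Ppm1bfl/fl group and 1628 and 1868 CPM in those labelled Ppm1bCKO. The Ppm1bCKO pair was close together and lay far below the lower of the other pair, by 1.74 on the log2 scale. The fitted log2 fold change was -2.24 ± 0.30 (standard error), and ranged from -2.56 to -1.84 when 1 library was left out. Igha made 44.0% and 42.2% of all immunoglobulin constant counts in the Ppm1bfl/fl libraries, and 30.0% and 24.4% in those labelled Ppm1bCKO. The mean share was 43.1% ± 1.28 (SD, n = 2) against 27.2% ± 3.92, a difference of -15.9 percentage points. Counting error is small at this depth, with a 95% Wilson interval of 29.7% to 30.2% for Ppm1bCKO replicate 1, so the spread between libraries sets the precision.

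Ighm encodes the mu heavy chain of IgM and is the constant gene nearest the variable segments (chr12:113418558-113422730). Its levels were 1103 and 676 CPM in the Ppm1bfl/fl group and 944 and 1627 CPM in those labelled Ppm1bCKO. The groups overlapped, since Ppm1bCKO replicate 1 lay below Ppm1bfl/fl replicate 1. The fitted log2 fold change was 0.53 ± 0.32, and it came to 0.085 without Ppm1bCKO replicate 2. As a share of all constant counts the groups were apart: Ighm made 4.72% and 4.58% in the Ppm1bfl/fl libraries and 17.4% and 21.3% in those labelled Ppm1bCKO. Among heavy-chain counts alone, the shares were 7.63% and 7.19% against 26.0% and 33.6%. A share rises when the rest of the total falls, and here the Ighm level itself overlapped between the genotypes. The ratio of Ighm to Igha counts was 0.107 and 0.108 in the Ppm1bfl/fl libraries, nearly equal though their Igha levels were not, and 0.580 and 0.871 in the others, a mean 6.73-fold higher.

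**Figure D2:**
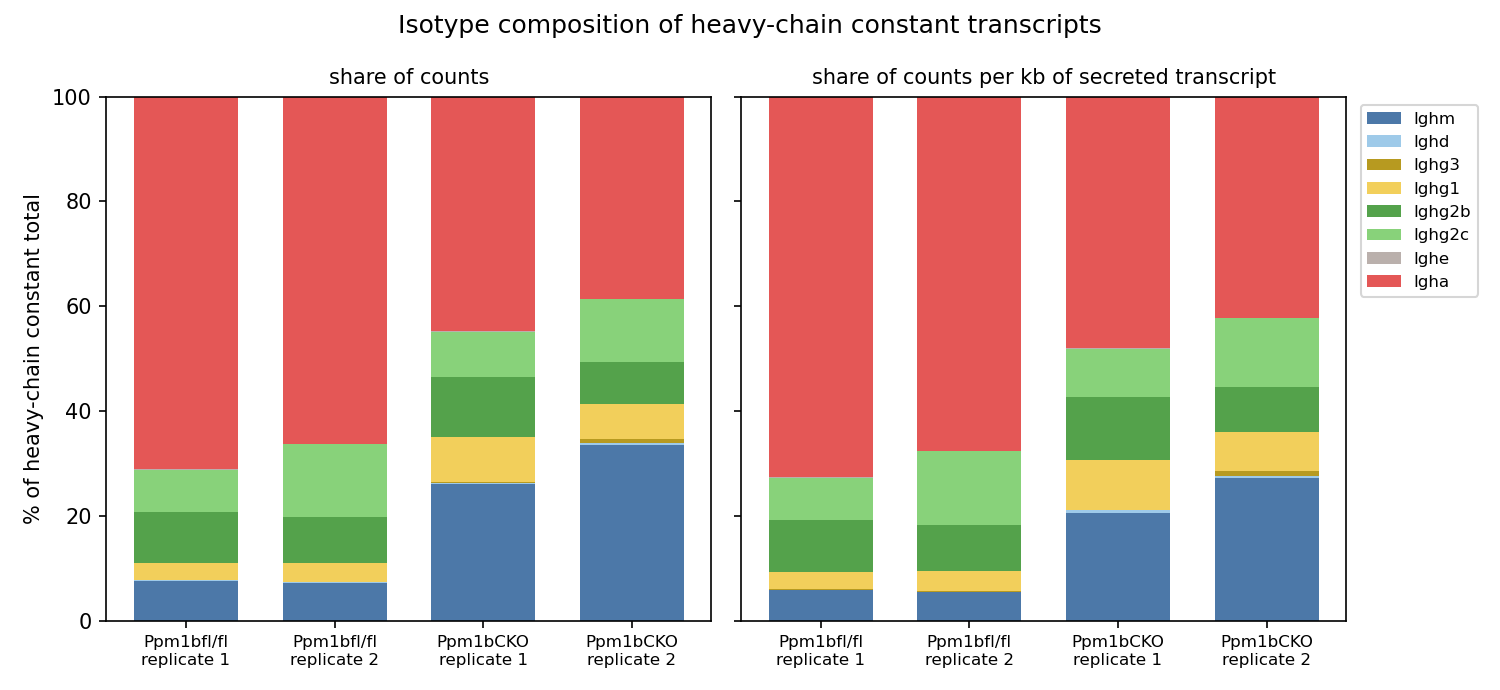
Share of each isotype in the heavy-chain constant total of each library, from counts (left) and from counts per kilobase of the secreted transcript (right). On the left the red Igha segment spans 71.1% and 66.3% in the Ppm1bfl/fl libraries and 44.8% and 38.6% in those labelled Ppm1bCKO, and the blue Ighm segment spans 7.63% and 7.19% against 26.0% and 33.6%.

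The same picture held when counts were divided by the length of the secreted transcript, which takes away the advantage of longer genes. On that scale Igha made 72.7% and 67.7% of the heavy-chain total in the Ppm1bfl/fl libraries and 48.1% and 42.3% in those labelled Ppm1bCKO, and Ighm 5.74% and 5.41% against 20.5% and 27.1%. Among heavy chains the mean difference of Igha was -27.0 percentage points from counts, -26.3 per kilobase of merged exons and -25.0 per kilobase of secreted transcript. Among all constant genes, where the short Igkc weighs more once length is divided out, the Igha difference was -15.9, -5.96 and -10.6 percentage points in that order, and the Ighm difference 14.7, 8.12 and 8.23.

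Ighd encodes the delta chain of IgD, which naive B cells carry on their surface beside IgM. It was a minor transcript at 8.23 and 8.02 CPM in the Ppm1bfl/fl group and 12.1 and 16.6 CPM in those labelled Ppm1bCKO. It was the only one of the 10 genes with both Ppm1bCKO libraries above both others, with a fitted log2 fold change of 0.82 ± 0.24. Its share of all constant counts was 0.0352% and 0.0544% against 0.223% and 0.218%. The number of Ighd counts per Ighm count was 0.00746 and 0.0119 in the Ppm1bfl/fl libraries and 0.0128 and 0.0102 in the others, so this ratio overlapped between the genotypes.

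The IgG genes encode the gamma chains of the main serum antibodies, and the mouse has several subclasses with different effector functions. The level of Ighg2b was 1431 and 825 CPM in the Ppm1bfl/fl group and 412 and 387 CPM in those labelled Ppm1bCKO, with a fitted log2 fold change of -1.50 ± 0.27. Ighg2c, the IgG2 subclass gene of C57BL/6 and related strains, stood at 1160 and 1306 CPM against 316 and 580 CPM, with a log2 fold change of -1.46 ± 0.29. For both genes each Ppm1bCKO library was below each Ppm1bfl/fl library, with a gap of 1.00 on the log2 scale. Ighg1, often the most abundant IgG of mouse serum, differed far less, at 447 and 334 CPM against 314 and 326 CPM. Its groups were separated by only 0.036 on the log2 scale, and its log2 fold change was -0.29 ± 0.19. Ighg3 was low, at 16.8 and 15.7 CPM in the Ppm1bfl/fl group, and at 3.87 and 35.6 CPM in those labelled Ppm1bCKO. The Ighg3 values of the Ppm1bCKO pair differed 9.19-fold and lay on either side of the others, so its fold change, 0.28 ± 1.04 on the log2 scale, has no stable sign and came to -2.07 without Ppm1bCKO replicate 2.

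Of all constant counts Ighg2b made 6.12% and 5.60% in the Ppm1bfl/fl libraries and 7.59% and 5.06% in those labelled Ppm1bCKO. Ighg2c made 4.96% and 8.85% against 5.82% and 7.59%, so both shares overlapped between the genotypes. The Ighg1 share was 1.91% and 2.26% against 5.78% and 4.26%. That of Ighg3 was 0.0717% and 0.107% against 0.0713% and 0.465%. Within the IgG total the subclasses were weighted differently. Ighg1 made 14.6% and 13.5% of IgG counts in the Ppm1bfl/fl libraries and 30.0% and 24.5% in those labelled Ppm1bCKO. The ratio of Ighg1 to the sum of Ighg2b and Ighg2c was 0.173 and 0.157 against 0.431 and 0.337, a mean 2.33-fold higher. The ratio of Ighg2c to Ighg2b did not separate the genotypes. It was 0.811 in replicate 1 and 1.58 in replicate 2 of Ppm1bfl/fl, and 0.766 in replicate 1 and 1.50 in replicate 2 of Ppm1bCKO, so libraries with the same replicate number lay close together. Across all genes, the deviations of libraries with the same number from their genotype means had a correlation of 0.0641. That is another measure than the ratio of 1 gene pair, so the values cannot be set on a common scale. Relative to Igha, the IgG sum was higher in the libraries labelled Ppm1bCKO, at 0.642 and 0.711 against 0.297 and 0.398.

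Ighe encodes the epsilon chain of IgE, which arms mast cells and basophils. It had the lowest mean level per kilobase of the 10 genes in both genotypes, with 10.1 and 2.06 CPM in the Ppm1bfl/fl group and 1.19 and 3.54 CPM in those labelled Ppm1bCKO. The high mean of the Ppm1bfl/fl group came from replicate 1, which held 269 counts against 62 in replicate 2, and the groups overlapped. The fitted log2 fold change of -1.35 ± 0.83 changed sign, to 0.20, when that library was left out. The Ighe share of all constant counts was 0.0432% and 0.0139% against 0.0219% and 0.0463%.

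Igkc, the constant gene of the kappa light chain (chr6:70726435-70726966), pairs with heavy chains of every isotype. Its level was 8609 and 5127 CPM in the Ppm1bfl/fl group and 1711 and 2638 CPM in those labelled Ppm1bCKO, with a fitted log2 fold change of -1.66 ± 0.33. Both Ppm1bCKO libraries were below both others. Its share of all constant counts was 36.8% and 34.8% against 31.5% and 34.5%. Its counts per heavy-chain count were 0.595 and 0.546 against 0.471 and 0.545, so kappa and the heavy chains were lower to a similar extent, and the separation of this ratio was small. The lambda genes, which encode the other light-chain class, summed to 304 and 230 CPM against 90.7 and 167 CPM. The kappa to lambda ratio of counts was 28.3 and 22.3 in the Ppm1bfl/fl libraries and 18.9 and 15.8 in the others. Within lambda, Iglc1 had a log2 fold change of -1.40 ± 0.32, Iglc2 of -0.43 ± 0.24 and Iglc3 of 0.17 ± 0.47. Iglc4 had at most 5 counts in any library and was not tested.

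Jchain (chr5:88519809-88527891) encodes the J chain and is not linked to the heavy-chain locus. Its level was 2448 and 1377 CPM in the Ppm1bfl/fl group and 463 and 624 CPM in those labelled Ppm1bCKO, with a log2 fold change of -1.82 ± 0.30. Both Ppm1bCKO libraries were below both others, by at least 1.14 on the log2 scale. The number of Jchain counts per count of Igha and Ighm together, the isotypes it joins, varied far less than either level, at 0.215 and 0.199 against 0.180 and 0.179, with the Ppm1bCKO libraries just below the others. Per kilobase of merged exons the same ratio was 0.219 and 0.203 against 0.166 and 0.159, a wider gap. Per kilobase of the secreted transcripts it was 0.174 and 0.162 against 0.157 and 0.161, so the size of the gap depended on the length used. Per Igha count alone Jchain was higher in the libraries labelled Ppm1bCKO, at 0.284 and 0.334 against 0.238 and 0.221. Per count of all 13 constant genes, IgG and light chains included, Jchain stood at 0.105 and 0.0933 against 0.0852 and 0.0816. The small variation is thus not particular to the isotypes that the J chain joins. Since the set was proposed because Igha and Jchain were both lower, these ratios are a description only.

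**Figure D3:**
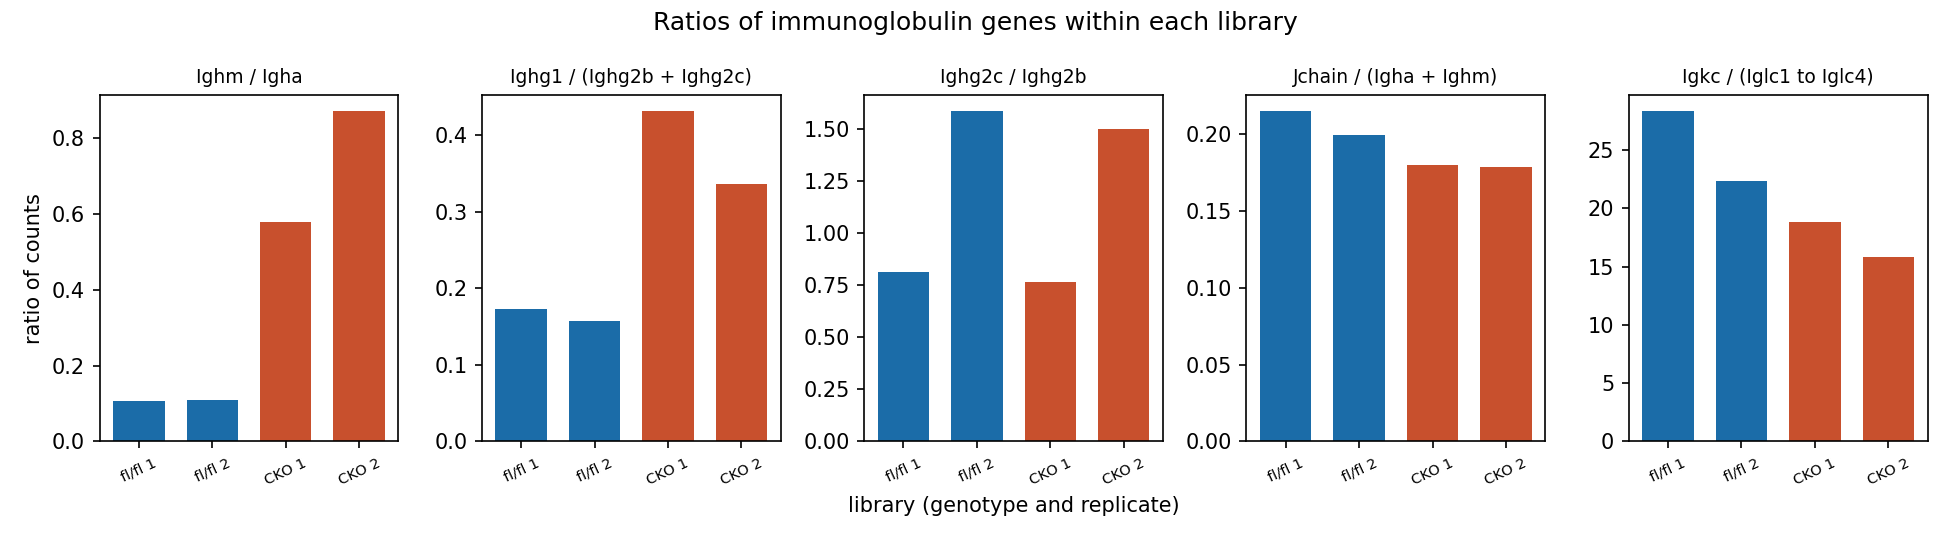
Ratios of counts within each library (blue, Ppm1bfl/fl; orange, Ppm1bCKO; bars start at 0). The ratios Ighm to Igha and Ighg1 to Ighg2b plus Ighg2c are higher in both Ppm1bCKO libraries, Ighg2c to Ighg2b alternates with the replicate number, and Jchain to Igha plus Ighm stays between 0.179 and 0.215.

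**Figure D4:**
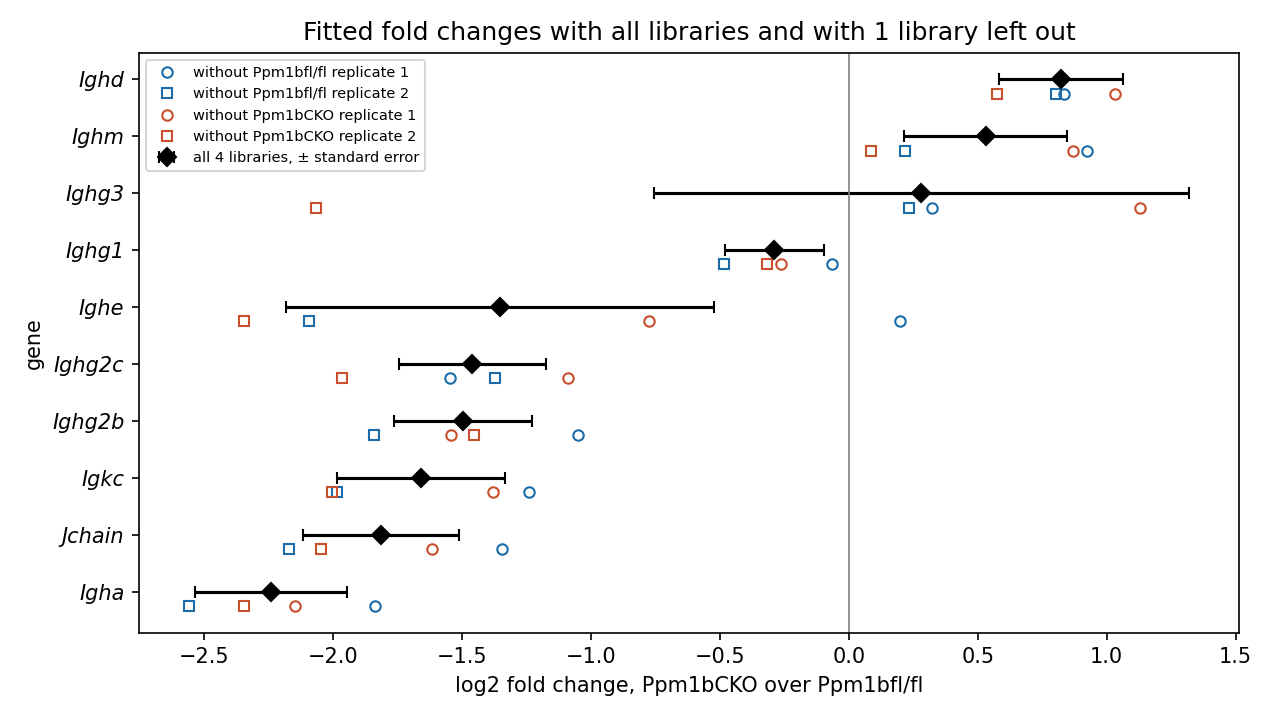
Fitted log2 fold change (Ppm1bCKO over Ppm1bfl/fl) of each gene with its standard error from all 4 libraries (black) and with 1 library left out (open symbols). Igha, Jchain, Igkc, Ighg2b, Ighg2c and Ighg1 stay below 0 and Ighd and Ighm above 0 in each case, while Ighg3 and Ighe cross 0.

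Levels can be compared between genes only per kilobase of exon. In the Ppm1bfl/fl libraries the order of the mean CPM per kilobase was Igkc (12910), Igha (3096), Ighg2c (929.8), Jchain (759.8), Ighm (472), Ighg2b (421), Ighg1 (150.6), Ighg3 (6.46), Ighd (4.28) and Ighe (3.84). The neighbours Ighg2c and Jchain, Jchain and Ighm, Ighm and Ighg2b, and Ighd and Ighe overlapped in that order. In the libraries labelled Ppm1bCKO the order was Igkc (4087), Ighm (681), Igha (655), Ighg2c (338), Jchain (216), Ighg2b (149), Ighg1 (123), Ighg3 (7.85), Ighd (7.56) and Ighe (1.49). Ighm moved from the fifth place to the second, where it overlapped with Igha, and Ighg2c with Jchain and Ighg3 with Ighd overlapped as well. This place of Ighm rests on merged exon lengths. Per kilobase of the secreted transcript, Ighm was the sixth in the Ppm1bfl/fl libraries and the third in those labelled Ppm1bCKO, where its mean of 861 lay below Igha at 1589 without overlap. The level of Ighm itself overlapped between the genotypes on either scale.

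Reads can be shared between constant genes only where their sequences agree. The secreted coding sequences of Ighg2b and Ighg2c were 86.3% identical, with a longest shared run of 78 bases, and the other IgG pairs 76.2% to 78.5% identical, with runs of 28 to 41 bases. Of the 50-base stretches of Ighg2c, 5.49% also occurred in another constant gene, against 4.15% for Ighg2b, 1.58% for Ighg3 and 0.393% for Ighg1. For Ighm, Ighd, Ighe, Igha, Igkc and Jchain the share was 0, and no 100-base stretch was shared by any of the 10. No read length is stated in the sources used here, so the split of counts among the IgG genes, Ighg2b and Ighg2c above all, is uncertain. None of the 10 genes overlapped an exon of another annotated gene.

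The genes around antibody production were counted in 7 lists with 163 tested members. In the edgeR test 0 of the 163 were called, while 36 had an unadjusted p under 0.05 (background 6.44%), DESeq2 called 9 (background 1.37% of the genes it tested) and limma-voom called 0 (background 0.305%). None of the genes named from these lists passed the edgeR test, and their values follow.

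Plasma cell identity genes (17 tested) had 6 positive and 11 negative log2 fold changes, with a median of -0.11. Their summed level was 1682 to 1832 CPM in the Ppm1bfl/fl group and 1890 to 2072 CPM in the others, a total to which genes shared with progenitors, such as Ly6c2 and Cd93, contributed. Prdm1, the repressor that drives plasma cell differentiation, stood at 12.1 and 9.81 CPM against 5.41 and 5.98 CPM (log2 fold change -0.94 ± 0.24, edgeR adjusted p = 0.366). Tnfrsf17, which encodes the survival receptor BCMA, stood at 4.62 and 2.32 CPM against 1.58 and 1.52 CPM, with an edgeR adjusted p of 0.704. Irf4 and Pou2af1, which B cells and plasma cells share, had positive values of 0.62 ± 0.20 and 0.85 ± 0.30, which came to 0.36 and 0.23 without Ppm1bCKO replicate 2, the library with 2 Y-linked counts. The part of plasma cell number in the immunoglobulin values was not tested.

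Genes for folding and secreting antibody (43 tested) had 30 positive and 13 negative log2 fold changes, with a median of 0.15. Derl3, a factor of endoplasmic reticulum-associated degradation, was the lowest of them in p, at 16.2 and 11.0 CPM against 4.62 and 6.19 CPM (log2 fold change -1.32 ± 0.28, edgeR adjusted p = 0.194), and it was the 1 gene of this list that DESeq2 called. Txndc5, a protein disulfide isomerase, and Sel1l, a partner of the same degradation route, had values of -0.48 ± 0.16 and -0.47 ± 0.18. Herpud1 had 0.44 ± 0.18. The summed level of the list was 9301 to 9832 CPM in the Ppm1bfl/fl group and 9438 to 11191 CPM in the others. These sums overlapped. Calr, Hspa5, P4hb and Canx gave much of them, with Ppm1bfl/fl means of 1446, 859, 750 and 656 CPM. Their log2 fold changes were 0.14, 0.29, 0.029 and 0.046, so the list is not read as a level of antibody-making cells.

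Class-switch recombination genes (32 tested) were evenly divided, with 16 positive and 16 negative values and a median of -0.0048. Xrcc4, an end-joining factor, had the smallest p (0.73 ± 0.25, edgeR adjusted p = 0.689). Genes of isotype direction and IgA plasma cell homing (35 tested) had 18 positive and 17 negative values, with a median of 0.00015. Ccr10, a homing receptor of IgA plasma cells, stood at 3.42 and 2.32 CPM against 0.660 and 0.927 CPM (-1.84 ± 0.41, edgeR adjusted p = 0.231). Tnfrsf13c, the BAFF receptor of mature B cells, and Ccr9, a gut homing receptor, had 1.06 ± 0.29 and 1.02 ± 0.31. Ccr9 is also one of the plasmacytoid dendritic cell markers counted below.

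Genes of B cells that carry membrane immunoglobulin leaned the other way. Partners of membrane immunoglobulin (15 tested) had 13 positive and 2 negative values, with a median of 0.68. Their summed level was 1113 to 1167 CPM in the Ppm1bfl/fl group against 1276 to 1582 CPM in those labelled Ppm1bCKO. Much of that sum came from Syk, Plcg2, Lyn and Btk, with Ppm1bfl/fl means of 260, 228, 173 and 121 CPM. Their log2 fold changes were 0.17, -0.20, 0.094 and 0.10, so the sum is not read as a level of B cells. Cd72, a coreceptor that restrains B cell receptor signals, stood at 22.5 and 27.3 CPM against 49.3 and 90.3 CPM (1.49 ± 0.28, edgeR adjusted p = 0.117). Ms4a1, which encodes CD20, and the kinase gene Blk had 1.71 ± 0.38 and 1.25 ± 0.28.

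Genes of the surrogate light chain and of early B cells (10 tested) had 9 positive values and 1 negative value, with a median of 0.83 and a summed level of 179 to 188 CPM against 251 to 370 CPM. Among them Pax5, the factor that holds B cell identity, had 1.09 ± 0.22 (edgeR adjusted p = 0.152) and Ebf1 1.40 ± 0.31. DESeq2 called 5 of the membrane partners and 2 of the early B cell genes higher, where it called 0.463% of all genes higher. For Cd72, Pax5 and Ebf1 the highest library was Ppm1bCKO replicate 2, which was also the highest for Ighm and Ighd. Without that library the log2 fold changes of Cd72, Ms4a1, Pax5 and Ebf1 were 0.99, 1.07, 0.79 and 0.80. No gene of either list was at 0 in all libraries, and their part in the Ighm and Ighd values was not tested.

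Fc receptors and antibody transporters (11 tested) had 8 positive and 3 negative values, with a median of 0.22. Fcmr, the Fc receptor for IgM on B cells, stood at 2.74 and 4.87 CPM against 9.06 and 17.1 CPM (1.78 ± 0.39, edgeR adjusted p = 0.203), and DESeq2 called it higher. Fcer2a, the low-affinity IgE receptor CD23 of B cells, had 1.06 ± 0.37.

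Of the markers of other marrow cells the edgeR test called 0, and 3 lists leaned one way. All 15 macrophage markers had negative values (median -0.61; summed level 1155 to 1181 CPM against 763 to 878 CPM), all 10 plasmacytoid dendritic cell markers positive ones (median 0.81; 685 to 756 CPM against 893 to 928 CPM), and 8 of 9 eosinophil markers positive ones (median 1.05; 3013 to 3324 CPM against 4540 to 7963 CPM). DESeq2 called 4 macrophage markers lower (background 0.911%), and 4 plasmacytoid dendritic cell and 5 eosinophil markers higher (background 0.463%). The other lists went both ways: 6 of 10 mature neutrophil markers (median 0.023), 8 of 13 T and NK cell markers (median 0.24) and 7 of 9 erythroid markers (median 0.21) had positive values. Of these, DESeq2 called 1 neutrophil marker (Retnlg) and 1 T and NK cell marker (Gzma) higher, and 0 erythroid markers. No marker of any of these lists was at 0 in all libraries, and their part in the immunoglobulin values was not tested. The 8 markers of the labelled cells had a median of -0.13, with sums of 501 to 607 CPM against 460 to 516 CPM.

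The genes most like Igha over the 4 libraries were found by the root mean square difference between log2 CPM profiles centred on their means, among 11071 genes outside the immunoglobulin family. Jchain was nearest at 0.232, followed by Cacna1h at 0.308, Shtn1 at 0.391, Camk2b at 0.408 and Derl3 at 0.458, where the median over these genes was 1.14. The set described here was proposed because Igha and Jchain were both lower, so the place of Jchain is no independent result. Cacna1h, which encodes a T-type calcium channel, stood at 24.9 and 15.1 CPM against 5.59 and 3.50 CPM, with a log2 fold change of -2.14 ± 0.33 and an edgeR adjusted p of 0.0461. The Cacna1h call ended with library size alone (edgeR adjusted p = 0.0608), with limma-voom (adjusted p = 0.0685), with a filter at 1 CPM (edgeR adjusted p = 0.0596) and without Ppm1bCKO replicate 2 (edgeR adjusted p = 0.341). The nearest genes to Ighm were Bfsp2, Tesc, Alyref2, Tnf and Xkrx, at 0.048 to 0.086, against a median of 0.469. With 4 libraries of differing depth in common, these distances are a description of likeness only.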

How the data were processed

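Bulk RNA-seq of 4 mouse bone marrow libraries was analysed from the deposited table of raw whole-number counts per gene. Per the labels' protocols, total RNA was taken from pre-sorted cells with TRIzol and made into libraries with a TruSeq RNA kit. The submitters' processing notes name featureCounts 2.0.1, HISAT2 2.2.0, Trim Galore 0.6.7 and the build mm10. Not given in the sources used here were the read length, the strand setting and the handling of multi-mapping reads. Reads that match several constant genes may have been dropped or split. Of 55399 gene identifiers, 55139 matched a GENCODE annotation of this build, which gave symbols, coordinates, exon lengths and, with its genome, the sequences; 260 did not match.

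Counts were fitted with edgeR 4.0.16 in R 4.3.3 (TMM scaling, filterByExpr with min.count 10 and min.total.count 15, a robust quasi-likelihood fit without covariates) over 16393 genes and all 4 libraries. Benjamini-Hochberg adjustment ran over all of these genes, and the threshold was 0.05. The biological coefficient of variation was 19.1%. Fold changes are Ppm1bCKO over Ppm1bfl/fl with standard errors. Shares and ratios were taken within each library from counts, and again per kilobase of merged exons or of the secreted transcript. Total counts were 26002277, 30045382, 22393973 and 24856083, and a gene with 0 counts may still have a level of up to 3 counts, equal to 0.0998 to 0.134 CPM. This limit and the 95% Wilson intervals cover counting error alone, since without molecular identifiers reads may be copies of a molecule. The widest interval of a share of constant counts reached 0.279 percentage points to either side.

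The 10 genes and the gene lists were chosen with earlier results of these data known. Named were the 10 genes, the lambda genes, Ppm1b, 4 markers of the labelled cells, the 5 genes most like Igha and the 5 most like Ighm, and from each pathway list the genes called or otherwise up to 4 with the smallest p; some of these are not reported here. The alternatives were DESeq2 1.42.0, its size factors in edgeR, limma-voom (limma 3.58.1), library size alone, no filter on low counts, a filter at 1 CPM in 2 libraries, a block for the replicate number, leaving out each library, another length or denominator for shares, and a prior count of 0.5 in place of 2 for profile likeness. The secreted-transcript length, for shares, ratios and the order of levels, was added after seeing the data. The fit was checked on simulated counts.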

Additional observations from a re-analysis of the deposited data

How the results depend on the processing

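The edgeR test called 61 genes. It called 199 with DESeq2 in its place, 311 with no low-count filter and 207 with the replicate number as a block; leaving out 1 library gave 94 to 3336, the highest without Ppm1bCKO replicate 1. Of the 163 pathway genes 0 were called, against 9, 17 and 11 under the same changes and 3 to 65 with 1 library left out. A left-out library leaves a genotype with 1 library, assumed to vary like the other pair. Replicate numbers share only a number here: libraries with the same number had deviations correlated at 0.0641, and no pairing was taken from them. Of the 10 genes, 5 were called with DESeq2, which called 1.37% of the genes it tested. With the block 5 were also called, where 207 of the same 16393 genes were. With no filter 5 were called, where 311 of all genes were, and the number tested in that setting is not reported here. These counts describe the genes chosen and test nothing about them. The number called of the 10 also changed with 1 library left out. The mean share difference of Ighm (14.7 percentage points) was 8.12 per kilobase of merged exons, 8.23 per kilobase of secreted transcript, 22.4 among heavy chains and 12.7 to 16.6 with 1 library left out. That of Igha (-15.9) was -5.96, -10.6 and -27.0 in the same order, and -18.7 to -13.2. Signs turned for genes with few counts or overlapping libraries, and the cause was not tested. The log2 fold change of Ighg3 was -0.45 with limma-voom, -0.37 with the block and -2.07 to 1.13 with 1 library left out, negative without Ppm1bCKO replicate 2. That of Ighe was -2.35 to 0.20, positive without Ppm1bfl/fl replicate 1. That of Iglc3 was -0.47 to 0.96, with -0.34 without Ppm1bfl/fl replicate 1 and -0.47 without Ppm1bCKO replicate 2. The mean share differences of Ighg3, Ighg2b, Ighg2c and Ighe were 0.179, 0.468, -0.206 and 0.00549 percentage points. With 1 library left out these differences ran from -0.0179 to 0.376 for Ighg3 and -0.793 to 1.73 for Ighg2b. For Ighg2c they ran from -2.15 to 1.74, and for Ighe from -0.00915 to 0.0201. They turned sign to -0.0179 (Ighg3) and -0.00672 (Ighe) without Ppm1bCKO replicate 2, -0.793 (Ighg2b) and 0.679 (Ighg2c) without Ppm1bCKO replicate 1, 1.74 (Ighg2c) and -0.00915 (Ighe) without Ppm1bfl/fl replicate 2, and 0.0533 (Ighg2c) per kilobase of secreted transcript. Of 451 settings for 41 other named genes, 4 ended a call, all of Cacna1h, and 5 changed the sign of a value that was not called (Cd34, Flt3 and Ly6a, with 1 library left out). The 5 genes nearest Igha were shared in both other scalings, and 4 of the 5 nearest Ighm with the prior count of 0.5. Depth limits Iglc4, with at most 5 counts; for the 10 genes the limit is 2 libraries a genotype.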
